A study of Mus musculus with 26 samples.

Results

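Distal intergenic peaks are the stretches of open chromatin that lie outside every annotated gene and far from any gene start. They were taken from one list of ATAC-seq peaks, in which a transposase cuts accessible DNA, made for mesenchyme of the fetal mouse reproductive tract. A peak was a member when it overlapped no gene span and lay more than 50 kb from every gene start, with spans and starts from the mm10 coordinates of all 41442 rows of the fetal count table. Of 70984 peaks on chromosomes 1 to 19 and X, 8227 were distal, which is 11.59% (95% Wilson interval 11.36 to 11.83%). The rest were 17649 intergenic peaks within 50 kb of a start (near intergenic), 28760 peaks inside genes and 16348 peaks within 1 kb of a start. The list held 71040 peaks, and 56 on other sequences were not used.

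The chromatin came from sorted Gli1+ cells of the mesonephros, with 2 ATAC-seq samples from each of 4 groups: females and males at E14.5 and at E16.5. RNA-seq counts covered the same 4 groups of Gli1+ cells, with 3 libraries each, and 3 Amhr2+ and 3 Gli1+ libraries from the female uterus at E19.5. The mice carried the reporter Rosa-Tomato with Gli1-CreER, a recombinase driven by the hedgehog target Gli1 that works only after tamoxifen, or with Amhr2-Cre, driven by the gene of the receptor for anti-Müllerian hormone. Dams of both lines are listed with tamoxifen at 1 mg on E12.5 and E13.5, so all groups shared that exposure. A Gli1+ cell is therefore one that expressed Gli1 around the injections or descends from one, and the Tomato signal does not report Gli1 at collection. The peak list has no sample, height or score column, so accessibility was not compared between sexes or ages, and groups were compared through the RNA of the genes that flank the peaks. The labels do not say whether replicates came from separate animals or litters, so p-values measure the spread between these libraries, which may be technical.

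Gene starts are bound by the general transcription machinery and are open in most cell types. Open chromatin far from genes holds enhancers, which act over long distances and often in one cell type or stage, and sites of CTCF, the zinc-finger protein that stops the loops formed by cohesin. An enhancer may skip the nearest gene, so a flanking gene here is a neighbour and was not shown to be a target.

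Fetal libraries held 23382983 to 64602477 counts and uterine libraries 28709191 to 37541045, and no pair of libraries was identical. Levels are given as CPM, counts scaled to library size. A floor of 3 counts lay between 0.0485 and 0.126 CPM in the fetal table, between 0.0778 and 0.102 CPM in the uterine one, and covers counting error only. The summed level of 12 duct mesenchyme markers was 28100 to 48500 CPM in the fetal libraries, while 8 epithelium markers summed to 23.1 to 53.2 CPM. The 6 erythroid markers, globins included, summed to 949 CPM in 1 female E14.5 library and to at most 23.9 CPM in the other fetal groups.

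The first sequences shown are the middle 200 bases of the widest distal peak in each of the 5 gaps between genes that hold the most distal peaks. They are from the RefSeq GRCm38.p6 genome, the assembly called mm10, on the + strand, 5′ to 3′, and capitals mark matches to the motifs listed further on.
Pard3 to Mir21c gap, chr8:128009718-128009917: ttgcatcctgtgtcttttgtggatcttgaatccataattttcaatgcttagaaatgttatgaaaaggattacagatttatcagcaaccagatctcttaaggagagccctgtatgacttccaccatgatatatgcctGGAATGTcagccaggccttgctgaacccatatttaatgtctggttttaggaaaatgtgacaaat
Cdh26 to RP24-80C21.2 gap, chr2:179093656-179093855: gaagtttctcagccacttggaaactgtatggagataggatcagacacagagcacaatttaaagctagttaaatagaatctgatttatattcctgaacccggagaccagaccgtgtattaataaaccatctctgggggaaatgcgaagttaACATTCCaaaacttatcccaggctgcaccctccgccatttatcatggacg
RP23-376H18.1 to Mir148a gap, chr6:51012322-51012521: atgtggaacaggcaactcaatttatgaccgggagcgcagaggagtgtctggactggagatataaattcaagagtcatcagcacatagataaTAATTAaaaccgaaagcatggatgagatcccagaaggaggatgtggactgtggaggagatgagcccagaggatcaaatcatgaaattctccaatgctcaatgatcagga
Gm23831 to RP23-254H18.1 gap, chr3:40159707-40159906: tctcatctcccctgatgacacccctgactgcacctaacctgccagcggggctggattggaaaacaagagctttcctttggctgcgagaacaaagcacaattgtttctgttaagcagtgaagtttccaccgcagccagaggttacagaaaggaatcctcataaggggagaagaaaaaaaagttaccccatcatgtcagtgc
Gm25705 to Map3k7 gap, chr4:31698199-31698398: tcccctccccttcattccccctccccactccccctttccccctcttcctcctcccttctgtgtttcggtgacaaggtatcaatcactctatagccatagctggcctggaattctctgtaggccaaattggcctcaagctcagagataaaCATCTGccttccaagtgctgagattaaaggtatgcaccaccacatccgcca
The first and second of these held a TEAD motif, the third a homeobox motif and the fifth an E-box. The fourth held none of the motifs searched. The windows are 38 to 52.5% GC.

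The next 5 are the 200 bases centred on the distal peak nearest to the start of 5 flanking genes. These genes are among those with the largest sex differences at E16.5, with the first 2 higher in females and the last 3 higher in males. The peaks of Rspo2 (154 bp), Ptch1 (130 bp) and Nalcn (88 bp) are narrower than the window, which runs past them on both sides.
Sall1, chr8:89153374-89153573: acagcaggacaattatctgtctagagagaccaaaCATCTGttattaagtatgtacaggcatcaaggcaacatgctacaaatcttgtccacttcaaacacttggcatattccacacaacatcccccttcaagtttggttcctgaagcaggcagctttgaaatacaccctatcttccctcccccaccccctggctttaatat
Rspo2, chr15:42962807-42963006: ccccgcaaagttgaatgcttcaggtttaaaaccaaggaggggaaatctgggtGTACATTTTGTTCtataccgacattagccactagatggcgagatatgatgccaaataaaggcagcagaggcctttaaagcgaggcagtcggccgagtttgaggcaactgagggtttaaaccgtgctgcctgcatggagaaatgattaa
Hhip, chr8:79908062-79908261: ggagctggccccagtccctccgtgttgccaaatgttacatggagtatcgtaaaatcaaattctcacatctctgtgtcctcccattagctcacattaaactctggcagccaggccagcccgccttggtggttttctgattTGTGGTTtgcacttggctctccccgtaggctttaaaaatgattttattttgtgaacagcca
Ptch1, chr13:63497100-63497299: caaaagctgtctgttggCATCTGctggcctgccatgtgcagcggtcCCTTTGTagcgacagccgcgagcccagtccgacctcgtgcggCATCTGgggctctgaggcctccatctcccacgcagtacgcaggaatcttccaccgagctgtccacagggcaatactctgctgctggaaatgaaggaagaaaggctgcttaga
Nalcn, chr14:123272233-123272432: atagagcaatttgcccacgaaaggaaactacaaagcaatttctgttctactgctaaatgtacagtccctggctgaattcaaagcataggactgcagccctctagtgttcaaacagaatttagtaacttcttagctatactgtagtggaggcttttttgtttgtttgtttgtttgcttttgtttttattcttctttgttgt
The peak near Sall1 is 764 bp wide and 108.93 kb from the gene's start, and its capitals mark an E-box. The peak near Rspo2 lies 207.84 kb from the start and matches the progesterone receptor motif on both strands of 1 site of 13 bases. The windows of Hhip, 149.66 kb from the start, and Ptch1, 68.471 kb from it, hold a RUNX motif and a pair of E-boxes with a SOX motif, respectively. The first E-box of the Ptch1 window lies outside the peak itself. The Nalcn window, 354.77 kb from the start of that gene and just beyond its 3′ end, holds none of the motifs searched. The Sall1 peak lies before the start of its gene, and the other 4 beyond the 3′ end. The genes themselves lie at chr8:89027235-89044162 (Sall1), chr15:43020794-43170826 (Rspo2), chr8:79965853-80058006 (Hhip), chr13:63508328-63565735 (Ptch1) and chr14:123276634-123627144 (Nalcn) in mm10. A match describes letters and is not evidence of binding.

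Distal peaks were sparse for the room they had. The territory that meets the rule spans 651.1 Mb, 25.44% of the assembled bases of these chromosomes, and held 12.63 peaks per Mb. Near intergenic territory held 23.78 peaks per Mb, gene bodies 26.34 and the surroundings of gene starts 221. The median distance from a distal peak to the nearest gene start was 96.492 kb (quartiles 67.888 and 157.01 kb), and the farthest peak lay 953.72 kb away. The bin from 50 to 100 kb held 4302 peaks (52.29%), 2595 lay at 100 to 200 kb, 1210 at 200 to 500 kb and 120 beyond that. The members nearest to the limit lay 50004, 50017 and 50019 bp from a start, and the nearest peaks left out lay at 49993, 49988 and 49969 bp. Peaks 50 to 60 kb from a start had a median width of 205.5 bp (n = 1254), and intergenic peaks at 40 to 50 kb one of 216 bp (n = 1633).

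Single distal peaks were about as wide as other peaks away from starts. Their median width was 219 bp (quartiles 125 and 367, range 50 to 1625), beside 188 bp for near intergenic peaks, 187 bp inside genes and 492 bp at starts. A width of at least 500 bp was reached by 1014 distal peaks (12.33%), 10.56% of near intergenic peaks, 10.72% of peaks inside genes and 49.07% of peaks at starts. Distal peaks stood more alone. The nearest other peak was 12560 bp away at the median, against 6971 bp for near intergenic peaks, and 17.64% of distal peaks had no other peak within 50 kb, against 4.029%.

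The share of peaks that were distal ran from 7.091% on chromosome 7 to 22.19% on chromosome 18, with a median of 11.73% over the 19 autosomes. Per Mb of distal territory the order was another one, with chromosome 2 at the top and chromosome 14 the lowest autosome at 9.912, around a median of 14.32. Chromosome X had 4.476 distal peaks per Mb, below every autosome. Peaks of all kinds were also sparser on X, at 9.946 per Mb against 23.35 to 39.78 on autosomes, and the list pools samples of both sexes, so the part of X copy number was not tested.

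**Figure D1:**
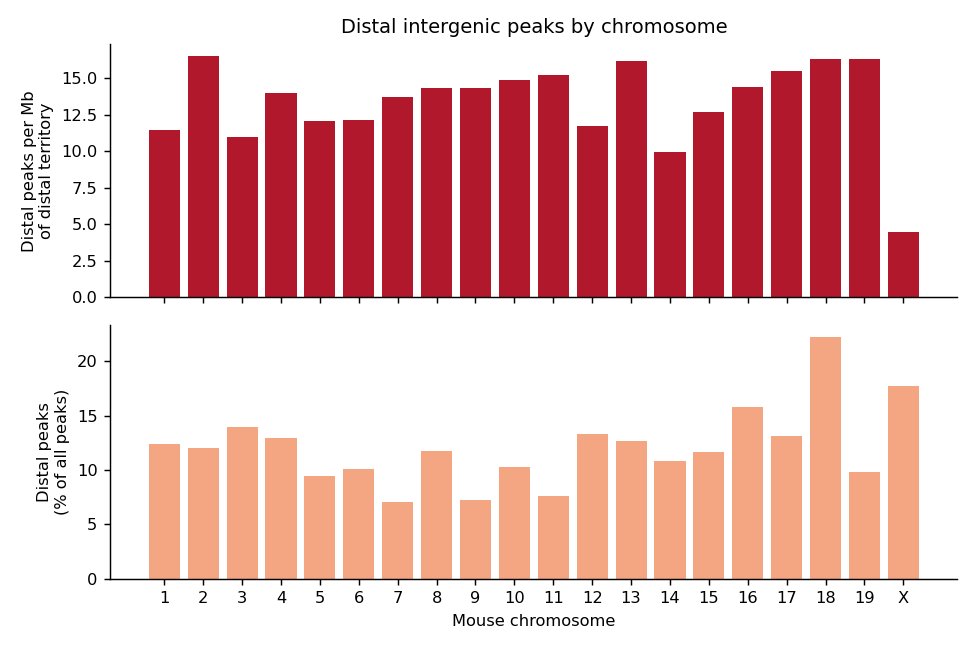
Distal peaks per Mb of territory that meets the rule (upper bars) and as a percentage of all peaks (lower bars), for each of 19 autosomes and X. Chromosome X is lowest in the upper panel at 4.476 per Mb, and chromosome 18 highest in the lower one at 22.19%.

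Most distal peaks remained far from coding genes in a later annotation. Against GENCODE vM21, which has more transcripts than the count table's rows, 119 distal peaks (1.446%) lay within 1 kb of a gene start, 380 (4.619%) overlapped a gene span and 4989 (60.64%) still met the full rule. When only protein-coding genes of that annotation were used, 7522 (91.43%) met it, and 24 lay within 1 kb of a coding start. Windows with the composition of CpG islands, GC-rich stretches typical of promoters, were found in 189 distal peaks (2.297%), 6.199% of near intergenic peaks, 7.368% of peaks inside genes and 69.29% of peaks at starts. Of these 189, 32 (16.93%) were within 1 kb of a GENCODE start, against 1.082% of the other 8038 distal peaks. Some members thus lie near starts of transcripts that the count table does not list.

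The middle 200 bases of distal peaks were AT-rich. Their median GC content was 44%, against 48.5% in near intergenic peaks, 49% inside genes and 65% at starts. As a local background, windows moved 2 kb to either side and touching no peak were used (n = 16228), and their median was 42%. No CpG at all was present in 18.5% of distal windows, 9.91% of near intergenic ones and 31.92% of the windows beside. GC fell with distance, from a median of 45.5% at 50 to 100 kb to 40% beyond 500 kb. Repeats covered at least 50% of the window in 1.884% of distal peaks and 21.55% of the windows beside. Short reads are hard to place in repeats, and the part of mapping in this gap was not tested.

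Searches covered 24 motifs on both strands of these windows, and matches of different motifs could overlap. The share of windows of all 70984 peaks that held each motif follows. It was 20.21% for the E-box CAGCTG and 19.67% for the E-box CATCTG, both bound by basic helix-loop-helix factors. Meis (TGACAG) stood at 13.57%, AP-1 (TGANTCA) at 5.917% and TEAD (ACATTCC) at 4.839%. Homeobox (TAATTA) stood at 3.935%, SOX (ACAAAGG) at 3.857%, RUNX (AACCACA) at 3.69%, posterior Hox (TTTATGG) at 3.344%, ETS (CCGGAAG) at 3.318%, the GATA factors (AGATAAG) at 2.894% and forkhead (GTAAACA) at 2.799%. SP and KLF (GGGCGG) reached 18.07%. TCF and LEF (CTTTGATC) stood at 0.8157%, CREB (TGACGTCA) at 0.7058% and GLI (GACCACCCA) at 0.3325%. The longer motifs, each a fixed consensus given here by name, were CTCF (6.089%), the progesterone receptor motif that other steroid receptors share (4.169%), EBF (0.6621%), NRF1 (0.2451%), YY1 (0.224%), the oestrogen receptor (0.1761%), NFI (0.1367%) and COUP-TF (0.02395%).

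E-boxes were the commonest of the motifs searched in distal peaks. CATCTG was found in 24.55% (95% interval 23.64 to 25.5%) of distal windows against 14.88% of the windows beside, and CAGCTG in 21.88% (21 to 22.79%) against 7.21%. CAGCTG had nearly the same share in near intergenic peaks (21.36%) and inside genes (22.73%), and CATCTG stood at 22.62 and 22.9% there. TEAD motifs, read by the partners of YAP and TAZ, were in 5.907% against 2.804% beside, and the progesterone receptor motif in 5.749% against 2.631%. Near intergenic peaks and peaks inside genes held TEAD in 5.36 and 5.862%, and the progesterone receptor motif in 4.72 and 4.941%. Posterior Hox motifs were in 5.129% against 3.389%, with 3.791% in near intergenic peaks and 3.912% inside genes. The palindromic oestrogen receptor motif was in 26 distal windows (0.316%) and in 1 of the 16228 windows beside. GLI, the motif of the effectors of hedgehog signalling, was in 30 distal windows (0.3647%, interval 0.2556 to 0.5201%) and 0.1356% of the windows beside. Near intergenic peaks held GLI in 0.425% and peaks inside genes in 0.3129%. The oestrogen receptor and NFI motifs are rare enough that only their counts are given: NFI was found in 11 distal windows and 1 window beside.

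Some motifs were not above the local level. Homeobox TAATTA was in 6.564% of distal windows and 7.364% of those beside, though it was in only 4.612% of near intergenic peaks and 1.077% of peaks at starts. RUNX (4.254% against 4.344% beside) and SOX (4.57% against 4.634%) had a background share inside the counting interval of the distal share. Promoter motifs were scarce: SP and KLF were in 4.121% of distal windows and 50.25% of windows at starts, and NRF1 in no distal window, which allows a share of up to 0.04667% by the upper Wilson bound. Shares of AT-rich motifs move with base composition, which differs between the classes as given above.

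**Figure D2:**
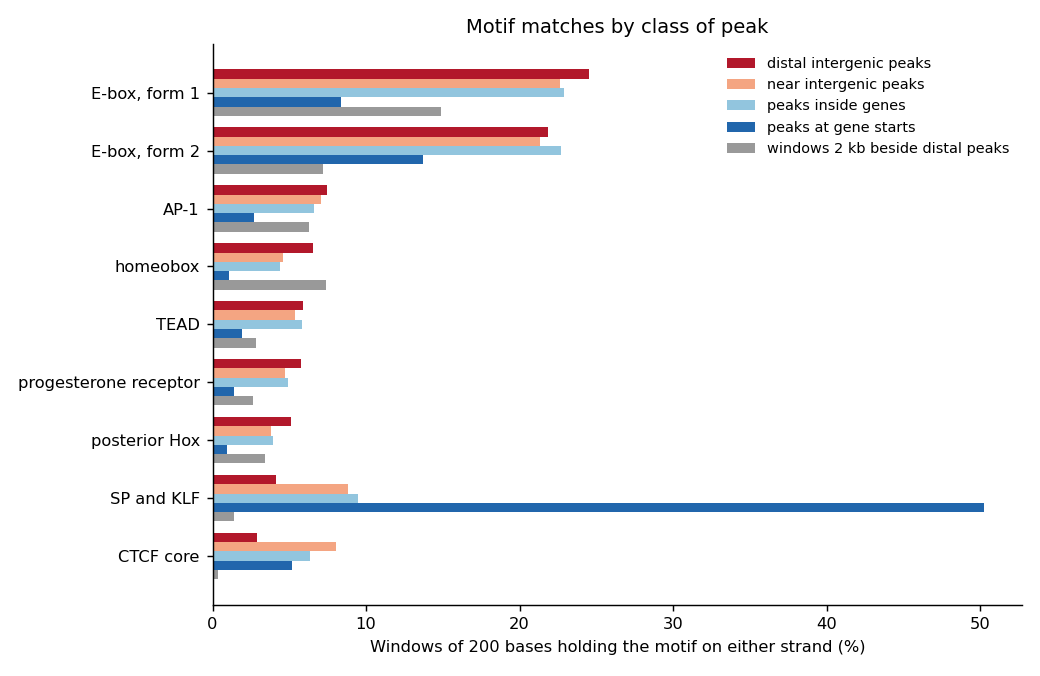
Percentage of 200-base windows that hold each of 9 motifs on either strand, in 4 classes of peak and in windows 2 kb beside distal peaks. E-box form 1 is CATCTG and form 2 is CAGCTG. The SP and KLF bar at gene starts reaches 50.25%, against 4.121% in distal peaks, and CTCF is lowest in distal peaks among the 4 classes.

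CTCF motifs were rarer in distal peaks than in any other class. They were present in 241 distal windows, 2.929% (interval 2.586 to 3.316%), against 8.034% in near intergenic peaks, 6.328% inside genes and 5.157% at starts. The windows beside distal peaks held 0.3451%. Among intergenic peaks the share fell with distance, from 9.092% at 1 to 10 kb and 7.481% at 10 to 50 kb to 3.789% at 50 to 100 kb, 2.004% at 100 to 200 kb and 2.066% at 200 to 500 kb. Beyond 500 kb, 1 of 120 windows held it. The CTCF consensus is rich in G and C. Median GC also fell over these bins, from 50% at 1 to 10 kb to 40% beyond 500 kb. The part of base composition in the lower CTCF share was not tested. CTCF windows were mostly narrow peaks: 5.627% of distal peaks of 50 to 99 bp held the motif, 4.73% of those from there to below 200 bp, 1.332% from 200 to below 500 bp and 0.5917% at 500 bp or more. Near intergenic peaks of the same widths held 10.16, 13.36, 3.693 and 1.718%, so the distal share was lower at every width.

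**Figure D3:**
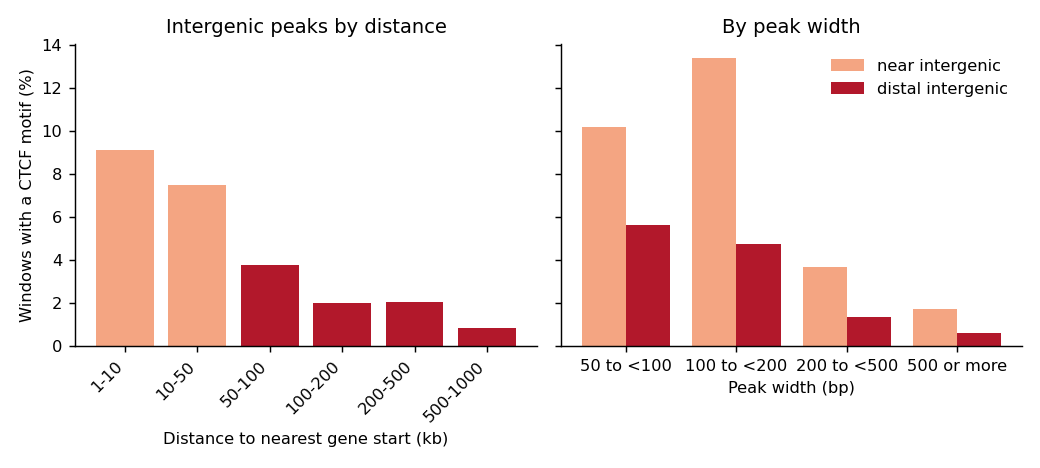
Percentage of 200-base windows with the CTCF motif, among intergenic peaks by distance to the nearest gene start in kb (left) and by peak width in bp (right). The share falls from 9.092% at 1 to 10 kb to 2.004% at 100 to 200 kb, and distal bars lie below near intergenic bars at each width.

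Distal peaks fell into 2428 gaps between a left and a right flanking gene, with a median of 2 peaks a gap. A single distal peak was found in 858 gaps, 2 to 4 in 990, 5 to 9 in 433 and 10 or more in 147, and the last held 1957 peaks (23.79%). The median gap was 200 kb long, and 6 peaks at chromosome ends had a gene on one side only. The median distance to the nearer flanking gene's edge was 76.86 kb and to the farther one 185.3 kb, and the nearer edge was that gene's start in 36.84% of peaks. Flanking genes ran in the same direction in 1187 gaps, towards each other in 797 and away from each other in 438. The rule keeps members away from gene starts but not from 3′ ends. By construction it therefore favours 3′ ends as nearer edges and genes that run towards each other. No share expected under the rule was worked out, so these values describe the members only. Among gaps with at least 5 distal peaks, the densest lay between Lclat1 and Capn13 on chromosome 17, with 8 distal peaks in 63.09 kb.

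The fullest gap lay on chromosome 8 (127612287 to 128278147), between the 3′ end of Pard3, which encodes a scaffold of cell polarity, and Mir21c. It held 31 distal peaks in 665.9 kb, 5 of them at least 500 bp wide. Pard3 was strongly expressed, at 177, 179 and 164 CPM in females and 148, 150 and 159 CPM in males at E16.5, without overlap. The difference was small, 0.19 ± 0.06 (log2, SE, adjusted p = 0.0289), and the call was lost without E16.5 female replicate 1 (adjusted p = 0.125) or 2 (0.152), male replicate 1 (0.0559) or 2 (0.0812), the filter on low counts (0.0639) or the other fetal libraries in the fit (0.0722). Mir21c was not tested, and the next tested row to the right, Mir1903, had 0.199 to 0.469 CPM in fetal libraries.

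The second, on chromosome 2, held 24 distal peaks in 927.6 kb between Cdh26, a cadherin gene, and RP24-80C21.2, with Cdh4, another cadherin, as the next tested gene. Cdh26 was low, at 1.57, 0.837 and 1.09 CPM in females and 0.412, 0.294 and 0.42 CPM in males at E16.5, and higher in females by 1.61 ± 0.27 (adjusted p = 0.000339). Cdh4 had means of 1.1 and 1.41 CPM at that age and was not called (adjusted p = 0.354). The third, on chromosome 6, held 23 between RP23-376H18.1 and Mir148a; its nearest tested neighbours, RP23-210L10.2 and Nfe2l3, gave adjusted p-values of 0.45 and 0.121 for sex at E16.5, and with the replicate block Nfe2l3 had 0.0491. The fourth, on chromosome 3, held 23 between Gm23831 and RP23-254H18.1. The nearest tested genes there were Fat4, a giant protocadherin at means of 471 to 596 CPM in fetal groups, and Intu, a planar polarity effector at 21.1 to 26.1 CPM. Neither was called between the sexes.

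The fifth gap, on chromosome 4, held 21 distal peaks before the start of Map3k7, the kinase TAK1, at means of 144 to 172 CPM and an adjusted p of 0.48 for sex at E16.5. Its left flank, Gm25705, was not tested. The nearest tested gene on that side, the ephrin receptor gene Epha7, had 68.2, 71.9 and 71.8 CPM in females and 29.3, 39.1 and 31.7 CPM in males at E16.5. It was higher in females by 1.08 ± 0.09 (adjusted p = 3.25e-07), without overlap. The sixth, on chromosome 12, held 20 beyond the 3′ end of Trib2, a pseudokinase gene, while Fam84a, the nearest tested gene on the left, was not called for sex at E16.5 (adjusted p = 0.67). Trib2 had 65.4, 61.1 and 50.5 CPM in females and 278, 252 and 255 CPM in males at E16.5, and the groups were far apart. It was lower in females by a log2 difference of -2.15 ± 0.09 (adjusted p = 1.55e-10), the largest sex difference at that age among the tested genes beside these 10 gaps, and fell with age in females (-2.16 ± 0.09, adjusted p = 1.63e-10).

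Gata6 and Rbbp8 bordered the seventh gap, on chromosome 18, with 20 distal peaks in 547.6 kb. Gata6, a zinc-finger transcription factor, had 57.9 ± 10.3 CPM in females and 45.9 ± 6.11 CPM in males at E16.5 (SD, n = 3) and was not called for sex (adjusted p = 0.13, and 0.0245 with the replicate block). In the uterus it had 9.33, 8.85 and 7.63 CPM in Amhr2+ and 43.8, 50.4 and 40.7 CPM in Gli1+ cells, a difference of -2.38 ± 0.11 (adjusted p = 7.74e-06). Rbbp8, a DNA repair factor, was lower in females at E16.5 by -0.39 ± 0.10 (adjusted p = 0.00892). The eighth gap, on chromosome 1, held 20, and its right tested neighbour Plxna2, a semaphorin receptor, was lower in females by -0.86 ± 0.09 (adjusted p = 3.12e-06). The left one, the kinase gene Camk1g, was higher in females by 0.32 ± 0.10 (adjusted p = 0.0258). That call was lost without E16.5 female replicate 1 (adjusted p = 0.0967) or 2 (0.0858), male replicate 2 or 3 (0.106 each), or the other fetal libraries in the fit (0.0636). The ninth, on chromosome 12, held 20 in 1451 kb before Flrt2, an adhesion and guidance protein, which was higher in females by 0.44 ± 0.07 (adjusted p = 0.000155), while Sel1l, the left tested neighbour, was not called (adjusted p = 0.281). The immediate flanks of the eighth and ninth gaps and the left flank of the sixth were small RNAs or clone-named rows with too few counts to test.

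The tenth gap, on chromosome 10, was the shortest at 279.6 kb and held 19 distal peaks, 6 of them at least 500 bp wide. Its flanks were a row named after a clone, on the left, and Eya4, a transcriptional coactivator. The clone-named row had 8.2, 7.49 and 5.86 CPM in females and 18.7, 18 and 19.3 CPM in males at E16.5 (-1.38 ± 0.11, adjusted p = 2.35e-07). Eya4 moved the same way by -0.53 ± 0.15 (adjusted p = 0.0134), a call lost without E16.5 male replicate 3 (adjusted p = 0.0756) or female replicate 2 (adjusted p = 0.0529). In the uterus Eya4 had 0.725 ± 0.329 CPM in Amhr2+ and 5.02 ± 1.05 CPM in Gli1+ cells (-2.76 ± 0.32, adjusted p = 0.000643).

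The 8227 peaks had 4244 flanking genes, 10.46% of the rows. Protein-coding genes made up 1816 of them (42.79%), 1597 were rows named after clones and similar rows without a match in the later annotation, and 752 were small RNAs. Enough counts for the fetal test were present in 1709 (40.27%), against 43.97% of all rows, and 1449 had no counts at all. Among coding genes the order turned: 82.43% of flanking coding genes were tested, against 71.21% of all coding genes. Both flanks were tested for 1411 peaks (17.15%), 1 for 3705 and neither for 3111. The median level of the tested flanking genes was 20.62 CPM, against 15.38 CPM for all tested genes.

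A gene was called when its adjusted p in edgeR's quasi-likelihood test was under 0.05, with adjustment over all genes tested. Between females and males at E14.5, 239 of 1709 flanking genes were called (13.98%), 120 higher in females and 119 in males. Over all tested genes 6.28% were called, 2.59% higher in females and 3.69% in males. The even split of flanking genes stayed without the filter on low counts, at 120 and 122. It was 104 and 133 with scaling by library size alone, and 154 and 144 with DESeq2. At E16.5 the flanking genes called were 757 (44.29%), 349 higher in females and 408 in males, beside 27.3% of all tested genes, 13.2% and 14.1% in those directions. The median log2 difference at E16.5 was -0.03 in flanking genes and 0.01 in all genes, so both directions contributed.

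Age and uterine comparisons gave the same order. In females, 856 flanking genes (50.09%) changed between the ages, 429 higher at E16.5 and 427 at E14.5, beside 39.6% of all genes, 21% and 18.6% in those directions. In males 634 changed (37.1%), 367 higher at E16.5 and 267 at E14.5, beside 23.3% of all genes, 13.1% and 10.2% in those directions. The sex difference itself changed with age in 366 flanking genes (21.42%), towards females in 165 and towards males in 201, beside 10% of all genes, 4.66% and 5.36% in those directions. In the uterus 624 of 1621 were called (38.49%), 238 higher in Amhr2+ and 386 in Gli1+ cells, beside 23.9% of all 16195 tested genes, 10.1% and 13.7% in those directions. Scaling by library size alone turned the order in 3 of these splits, to 385 higher at E16.5 and 499 at E14.5 in females, 327 and 334 in males, and 355 higher in Amhr2+ and 329 in Gli1+ cells in the uterus. The 5 fetal comparisons share libraries and are not independent of each other.

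The higher share was also seen among coding genes and at each level of expression. Of flanking coding genes tested, 46.89% were called for sex at E16.5, against 31.55% of all coding genes tested. At 20 to 50 CPM, 172 of 329 flanking genes were called (52.28%), against 30.34% of all genes in that range. Below 1 CPM the shares were 30.66 and 15.5%, and at 50 CPM or more 42.72 and 32.55%. For sex at E16.5 the called share did not climb steadily with the number of distal peaks beside a gene. It was 43.47% with 1 peak, 41.99% with 2 to 4, 48.89% with 5 to 9 and 46.76% with 10 or more. Over the same bins it rose at each step for age in females (46.27, 49.26, 53.89 and 58.99%). The same held for age in males (34.14, 36.8, 40.56 and 41.01%) and in the uterus (35.93, 38.37, 40.59 and 43.51%). Sex at E14.5 and the change of the sex difference with age showed no steady climb. These trends were not tested.

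Genes beside large gaps without a distal peak were called often too. A further 2067 gaps had room for a distal peak and held none, with a median room of 30.49 kb against 122.8 kb in gaps with one. This set was chosen after the other values were seen. Of 1056 tested genes that flank only such gaps, 391 were called for sex at E16.5 (37.03%), between the flanking genes of distal peaks and all genes. Genes that flank near intergenic peaks and no distal peak stood at 33.35%. For the uterus the 3 shares were 38.49, 32.14 and 26.65%. At 1 to 5 CPM the genes beside gaps without a distal peak had the higher share for sex at E16.5, 49.14% against 44.05%. None of these differences between sets was tested, and gap length and the presence of a peak cannot be told apart here.

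**Figure D4:**
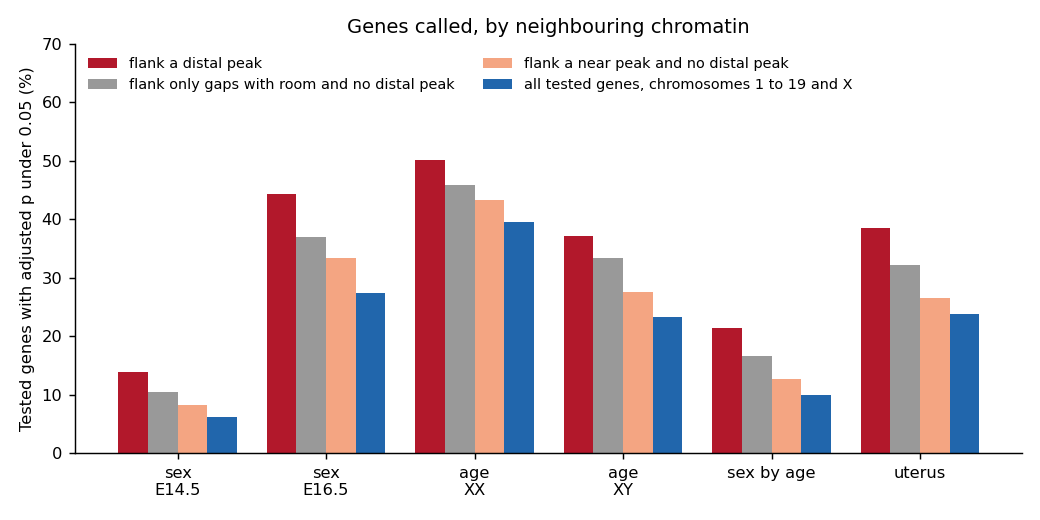
Percentage of tested genes with an adjusted p under 0.05 in 6 comparisons, for genes that flank a distal peak, genes that flank only gaps with room for one but without one, genes that flank a near intergenic peak and no distal peak, and all tested genes. At E16.5 the 4 bars for sex are 44.29, 37.03, 33.35 and 27.35%.

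Both sides of a gap could be followed in 421 gaps. At E16.5, both flanks were called for sex in 80 of them, 1 flank in 206 and none in 135, where 44.29% of all tested flanking genes were called. Where both were called, 57 pairs (71.25%) were higher in the same sex. No count expected for unrelated neighbours was worked out. Other neighbouring gene pairs were not examined, so these values are not shown to be particular to gaps with distal peaks. Flanks picked by the letters of their peaks gave small sets: 17 of 26 tested flanking genes of the 30 peaks with a GLI motif were called for sex at E16.5 (65.38%), 6 higher in females and 11 in males, and 8 of 16 for the oestrogen receptor motif (50%). The shares to read these against are 44.29% of all flanking genes and 27.3% of all tested genes. GLI had the highest share of the motifs followed in this way. The larger sets gave 41.74% (CTCF), 44.04% (CAGCTG), 44.27% (AP-1), 45.71% (TEAD), 48.18% (progesterone receptor) and 52.38% (posterior Hox). In the uterus 10 of 24 flanking genes of GLI peaks were called (41.67%), beside 38.49% of all flanking genes and 23.9% of all tested genes. These differences were not tested.

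The genes described next are among the called flanking genes with the largest sex differences at E16.5, a mean of at least 10 CPM in 1 group and no overlap between the sexes. In bulk sorted cells, fewer cells of a type and less RNA per cell cannot be told apart. The summed level of 6 smooth muscle markers also differed, at 465 to 567 CPM in females and 1720 to 2890 CPM in males at E16.5, and its part in the differences below was not tested. The genes Rxfp2, Fgf10, Dpp10, Csmd3, Hhip, Nalcn, Hmga2, Gap43, Grik3, Pard3, Map3k7, Trib2, Plxna2, Flrt2, RP23-210L10.2, Eya4, the clone-named row across from it, Epha7, Fat4, Camk1g, Mir1903, Tcf7l2, Nfib, Fgf20, Pdgfc, Pdgfd, Slit2, Sema6d, Epha3 and Robo2 overlap another row of the table. Their counts are uncertain to that extent, since the fetal kit did not keep strand.

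Hhip, which encodes a membrane protein that binds and limits hedgehog ligands, had 3 distal peaks beside it. Its own level was 2.69, 1.87 and 1.95 CPM in females at E16.5 and 65.7, 102 and 91 CPM in males. No library of one sex came near the other, and the difference was -5.31 ± 0.19 (log2, adjusted p = 4.14e-10). At E14.5 it had 42.4, 33.8 and 35.2 CPM in females and 64.5, 60.5 and 62.5 CPM in males, and fell with age in females by 4.10 on the log2 scale (adjusted p = 3.43e-09). Ptch1, the hedgehog receptor and itself a target of the pathway, had 1 distal peak beside it and 72.5, 68.6 and 88.7 CPM in females against 423, 751 and 838 CPM in males at E16.5. The male libraries spread widely, yet the lowest was above every female one (-3.13 ± 0.23, adjusted p = 4.5e-06). At E14.5 its means were 616 and 855 CPM and it was not called (adjusted p = 0.277).

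Nalcn, the sodium leak channel, followed the order of Hhip. It had 4.82, 5.17 and 4.6 CPM in females and 31.6, 47.9 and 45.7 CPM in males at E16.5 (-3.10 ± 0.15, adjusted p = 1.66e-09), after 26.9 to 39.7 CPM in all 6 libraries at E14.5. Lypd6, a modulator of Wnt signalling, was at 4.22 to 5.38 CPM in the E14.5 libraries of both sexes. At E16.5 it had 3.48, 3.25 and 3.99 CPM in females and 23.1, 31.3 and 31.3 CPM in males, and the rise in males was 2.52 ± 0.13 (log2, adjusted p = 2.4e-09). Efemp1, a fibulin of the extracellular matrix with 4 distal peaks beside it, reached 92.3, 121 and 120 CPM in males against 15, 14 and 15.1 CPM in females (-2.92 ± 0.12, adjusted p = 1.5e-10). Chodl, a membrane lectin, differed at both ages: 78.2 to 90.5 CPM in males and 8 to 14.3 CPM in females at E14.5, and 74.2 to 88.4 against 8.52 to 11.5 CPM at E16.5.

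The tested genes across the gap from Hhip and Ptch1 were not called for sex. Anapc10, a subunit of the anaphase-promoting complex across from Hhip, had means of 17.4 and 20.5 CPM in females and males at E16.5 (-0.24, adjusted p = 0.0662). Fancc, a DNA repair gene across from Ptch1, had 13.1 and 15.2 CPM (-0.22, adjusted p = 0.0516). The opposite flanks of Sall1, Rspo2 and Nalcn, namely Gm26331, RP24-316L11.1 and another clone-named row, had too few counts to test. These partners were picked for their place, not by the rule for named genes.

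Sall1, a zinc-finger transcription factor of the urogenital system with 8 distal peaks beside it, had the largest difference towards females among genes that met this rule. It had 12.2, 17.7 and 12.9 CPM in females and 0.751, 0.24 and 0.679 CPM in males at E16.5 (4.62 ± 0.29, adjusted p = 4.29e-08). The sexes were closer at E14.5, with means of 9.35 and 4.52 CPM, and Sall1 fell with age in males (-2.97 ± 0.30, adjusted p = 5.31e-06). It was higher again in the uterus, where Amhr2+ cells had 163, 150 and 200 CPM and Gli1+ cells 58.4, 40.7 and 49.3 CPM (1.79 ± 0.15, adjusted p = 0.000255). The 2 tables were normalized separately, so fetal and uterine levels are set side by side only.

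Rspo2, a secreted amplifier of Wnt signalling with 5 distal peaks beside it, appeared in females between the ages. It had 0.468, 0.358 and 0.507 CPM in females at E14.5 and 14.2, 14.9 and 18.5 CPM at E16.5, while males stayed between 0.505 and 1.67 CPM at both ages. The sex difference at E16.5 was 3.58 ± 0.25 (adjusted p = 4.61e-08). Slc26a7, an anion transporter, turned direction: females had 1.27 to 3.37 CPM and males 5.63 to 9.34 CPM at E14.5, and 29.5 to 43.7 against 4.3 to 5.61 CPM at E16.5. Dpp10, an accessory subunit of potassium channels, had 30.4, 29.3 and 34.1 CPM in females at E16.5 and 3.18 to 5.25 CPM in the other fetal libraries, and Csmd3, a large membrane protein, 9.55 to 13.3 against 0.821 to 1.85 CPM. The distal peak nearest to Dpp10 lies before its start, 253 kb away, and the 1 distal peak beside Csmd3 lies beyond its 3′ end, 1320 kb from its start.

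**Figure D5:**
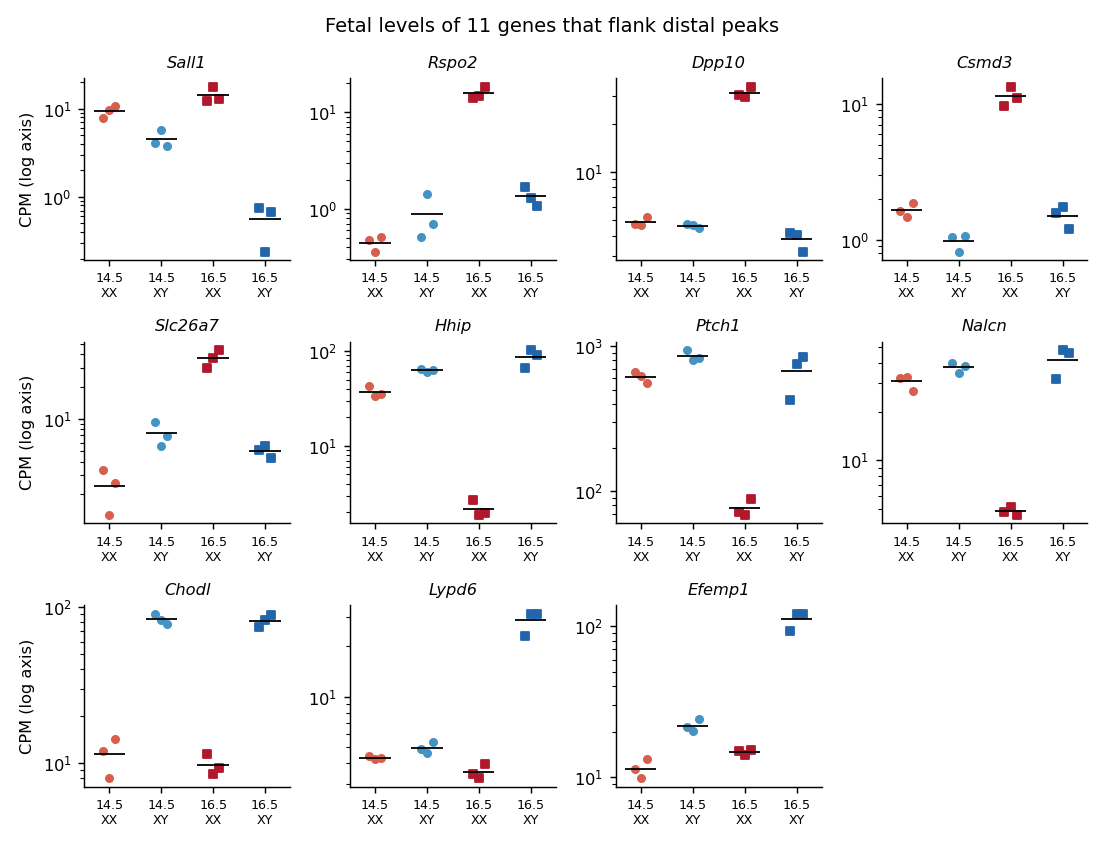
CPM in each fetal library (points; log axis, with its own scale in each panel) and group means (lines) for 11 flanking genes among those with the largest sex differences at E16.5. Rspo2 and Dpp10 are high in the 3 female E16.5 libraries, and Hhip, Ptch1 and Nalcn are low in them.

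At E14.5 the largest differences by the same rule were smaller. Smooth muscle markers summed to 302 to 326 CPM in females and 607 to 888 CPM in males at that age, and their part was not tested. Rxfp2, the receptor of the hormone INSL3, had 38.9, 32.6 and 42.4 CPM in females and 17.4, 17.2 and 16.7 CPM in males (1.15 ± 0.15, adjusted p = 0.000374). Fam78b and the kainate receptor gene Grik1 were higher in females by 1.05 and 1.04. Cldn1, a tight junction protein with 11 distal peaks beside it, was higher in males, at 67.4, 53.3 and 56.3 CPM against 15.2, 18 and 16.9 CPM (-1.82 ± 0.15, adjusted p = 1.07e-05). Fgf10, a growth factor that mesenchyme sends to epithelium, had 4.44, 5.1 and 4.85 CPM in females and 13.6, 13.8 and 14.9 CPM in males (-1.56 ± 0.12, adjusted p = 1.07e-06). By E16.5 both sexes had more of it, with 33.5 ± 1.1 and 46.2 ± 7.57 CPM.

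The largest changes with age were picked by the same rule. Cntn6, a contactin with 7 distal peaks beside it, went from 1.1, 1.08 and 1.05 CPM to 14.6, 17.6 and 19.8 CPM in females (4.01 ± 0.20, adjusted p = 9.13e-10). In males Abi3bp, a matrix protein, went from 11.5, 9.13 and 14.1 to 109, 102 and 110 CPM (3.20 ± 0.13, adjusted p = 7.92e-10), and in females it rose by 3.06. Tmem200c and the tendon homeobox gene Mkx rose in males by 3.23 and 2.98. Hmga2, a chromatin protein of immature cells, fell in males from 393, 393 and 329 to 68.2, 43.7 and 43.5 CPM (-2.84 ± 0.17, adjusted p = 1.85e-07) and in females from a mean of 596 to 107 CPM. Gap43, a growth cone protein, and Mgam, a glucosidase, fell in males, with log2 changes of -2.73 and -2.20.

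Asb4 and Nov had the largest uterine differences by this rule. Marker sums also differed between these groups, and their part was not tested. Duct mesenchyme markers summed to 22900 to 24900 CPM in Amhr2+ and 41200 to 45600 CPM in Gli1+ cells, smooth muscle markers to 1120 to 1770 and 2120 to 2340 CPM, and epithelium markers to 71.6 to 73.7 and 31.2 to 43.3 CPM. Asb4, which encodes a subunit of ubiquitin ligases, had 0.856, 0.755 and 0.915 CPM in Amhr2+ and 38.3, 39.3 and 37.8 CPM in Gli1+ cells (-5.51 ± 0.11, adjusted p = 1.16e-07). Nov, a matricellular CCN protein with 4 distal peaks beside it, had 0.544, 0.62 and 0.407 against 18.8, 17.7 and 16.6 CPM (-5.05 ± 0.17, adjusted p = 2.17e-06). Adgrd1, an adhesion receptor, was lower in Amhr2+ cells by a log2 difference of -3.84. Higher in Amhr2+ cells were Hs3st3b1, a heparan sulfate sulfotransferase (2.40 ± 0.31, adjusted p = 0.00199), and Grik3, at 29.9, 26.9 and 28.2 against 9.74, 6.22 and 5.07 CPM (2.01 ± 0.21, adjusted p = 0.000577). Cnr1, a cannabinoid receptor, was called (2.23, adjusted p = 0.0174) but not without Amhr2+ replicate 1 (0.051), Gli1+ replicate 1 (0.0551) or 2 (0.0739), or the filter on low counts (0.0783).

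Developmental genes were common among the flanks. Of 118 transcription factors listed for this tissue, 37 flanked a distal peak (31.36%), as did 22 of 59 secreted signals and antagonists (37.29%) and 46 of 73 adhesion and guidance genes (63.01%). Of all rows 10.46% did so, and of coding rows 9.187%. The lists were chosen with earlier results of these data known. A gene can flank a distal peak only beside a gap with room for one. The lists were not set against genes beside such gaps, so the part of gap length and list choice was not tested. Of 34 tested flanking transcription factors, 8 were higher in females and 4 in males at E16.5, with a median log2 difference of 0.08. The shares to read this and the next 2 lists against follow. Over all tested genes, 13.2% were higher in females and 14.1% in males at E16.5, with a median of 0.01. In the uterus 10.1% of them were higher in Amhr2+ and 13.7% in Gli1+ cells. The closer reference is all tested flanking genes, since the list members counted here are flanking genes. Those shares were 20.42% and 23.87% at E16.5, with a median of -0.03, and 14.68% and 23.81% in the uterus, in the same order. In the uterus 11 of 33 transcription factors were higher in Amhr2+ and 14 in Gli1+ cells. Tshz1 and Tcf7l2, each with 15 distal peaks beside them, were not called for sex at either age, though Tcf7l2 had an adjusted p of 0.0449 at E16.5 with the replicate block. Nfib, with 12, had means of 405 to 469 CPM in the fetal groups.

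Among 21 tested secreted signals beside distal peaks, 5 were higher in females and 8 in males at E16.5, and 6 of 20 were higher in uterine Gli1+ cells with 0 higher in Amhr2+ cells by edgeR. In that direction 1 had an unadjusted p under 0.05, and DESeq2 called 1. Pdgfc, a platelet-derived growth factor with 12 distal peaks beside it, had 40.9, 41.8 and 36.7 CPM in females and 77.5, 70.5 and 67.2 CPM in males (-0.85 ± 0.09, adjusted p = 2.34e-06). Its relative Pdgfd went slightly the other way (0.31 ± 0.09, adjusted p = 0.012), a call lost without E16.5 male replicate 3 (adjusted p = 0.0758). Gdf6 and Vegfc, with 12 each, were not called for sex (Gdf6 had an adjusted p of 0.0447 at E16.5 with the replicate block), and Fgf20, also with 12, had too few counts to test.

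Among adhesion and guidance genes more were called towards females than towards males at E16.5. Of 44 tested, 23 were higher in females and 11 in males, with a median log2 difference of 0.39, and in the uterus 20 of 44 were higher in Gli1+ and 11 in Amhr2+ cells. Slit2, a secreted guidance cue with 13 distal peaks beside it, had 762, 723 and 727 CPM in females and 329, 348 and 292 CPM in males (1.19 ± 0.09, adjusted p = 7.38e-08). Its receptor gene Robo2, with 9, was not called for sex at E16.5 (adjusted p = 0.149) and was higher in uterine Amhr2+ cells, at 433, 454 and 347 against 227, 218 and 226 CPM (0.88 ± 0.10, adjusted p = 0.000502). Epha3, an ephrin receptor with 9, had 5.73, 6.12 and 5.29 CPM in Amhr2+ and 56.2, 67.4 and 54.4 CPM in Gli1+ cells (-3.37 ± 0.11, adjusted p = 2.17e-06). Sema6d was higher in females by 0.35 at E16.5. Efna5, with 10 distal peaks beside it, was not called for sex and fell with age, from means of 105 to 48.1 CPM in females and 101 to 52.3 CPM in males.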

How the data were processed

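ATAC-seq, fetal RNA-seq and uterine RNA-seq of sorted cells were used, and groups and replicate numbers come from the sample titles. The authors deposited raw read counts per gene, per the file headers, and 1 merged list of peak positions for all ATAC-seq samples. The submitters' processing notes name Bowtie 1.2, MACS2 2.1.1, bedtools 2.24.0, SAMtools 1.3.1, STAR 2.5, Subread 1.5.0-p1 and mm10. Strand use in counting is not given in the sources used here.

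Members and gene lists were chosen with earlier results of these data known. A flanking gene is the row with the largest end before a peak or the smallest start after it. Counts were tested with edgeR 4.0.16 in R 4.3.3 (filterByExpr, TMM, robust quasi-likelihood, Benjamini-Hochberg over all genes tested, threshold 0.05), with 4 group means over the 12 fetal libraries and a separate fit of 6 uterine ones. CPM use TMM-scaled library sizes. A standard error was obtained by dividing the log2 difference by the square root of its F statistic. Of the 41442 rows, 64 repeat a symbol, and 1 has no strand, so that both its ends were taken as starts. Peak classes, flanks and the edgeR fit were tested on simulated data.

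Named genes were the flanks of the 10 fullest gaps, with the nearest tested gene where a flank was not tested; the called flanking genes with a mean of at least 10 CPM, no overlap between groups and the largest changes (6 in each direction for sex at E16.5, 3 in each other comparison); and the 5 genes of each of 3 lists with the most distal peaks. Of these, 2 genes are not reported here, and untested flanks of 3 of the gaps are described without names. Wilson intervals (95%) cover counting error only. Same-numbered libraries at E16.5 deviated together between the sexes (correlations of 0.284, 0.115 and 0.396), so the numbers were read as possible pairs there. This reading rests on the data, since no label links a number with a litter or day. The main fit had no term for pairs, so its p-values leave them out. An alternative fit with a replicate block, a term for the replicate number, was run for every comparison. For sex at E16.5 it called 857 flanking genes, against 757 in the main fit, and the called share of all tested genes rose as well. Alternatives were DESeq2 1.42.0, library size scaling, no filter, the replicate block, left-out libraries, other distance limits, a minimum width, the later annotation and the nearest tested genes.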

Additional observations from a re-analysis of the deposited data

Results flagged for a closer look

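The test of the difference between ages, the interaction term in edgeR, called 366 of 1709 tested flanking genes (21.42%), beside 10% of all tested genes. In these the sex difference at E16.5 was not that at E14.5. The values below are changes of the female minus male log2 difference from E14.5 to E16.5. Rspo2 changed by 4.59 (adjusted p = 7.02e-06) and Slc26a7 by 4.46 (adjusted p = 1.91e-05), both towards females. Hhip changed by -4.56 (adjusted p = 1.05e-07), Nalcn by -2.81 (adjusted p = 4.51e-07) and Lypd6 by -2.80 (adjusted p = 2.62e-07), all towards males.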

How the results depend on the processing

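The number of distal peaks was 13516 with a limit of 25 kb, 3925 with 100 kb, 3884 with a minimum width at the median of all peaks and 4989 with the later annotation. Limits of 25 and 100 kb gave 404 and 130 called flanking genes for sex at E14.5, 1322 and 339 for sex at E16.5, 1585 and 374 for age in females, 1109 and 297 for age in males, 609 and 160 for the interaction and 1058 and 290 in the uterus. These alternatives change the number of flanking genes by construction. At 25 and 100 kb, 3234 and 704 flanking genes were tested in the fetal comparisons, and 3076 and 664 in the uterus. In each comparison the called share of tested flanking genes was lower at 25 kb and higher at 100 kb than at 50 kb. At both limits it stayed above the called share of all tested genes. The nearest tested gene on each side gave 366, 1162, 1402, 998, 548 and 963 for the 2 sex, 2 age, interaction and uterine comparisons. This set held 2805 tested genes in the fetal comparisons and 2574 in the uterus. In each comparison its called share was below that of the tested flanking genes and above that of all tested genes. Leaving out 1 library gave 131 to 289 for sex at E14.5, 622 to 819 for sex at E16.5, 716 to 927 for age in females, 543 to 638 for age in males, 302 to 457 for the interaction and 393 to 564 in the uterus. Counts moved by over 1.5 times without E14.5 female replicate 1 (140), 2 (151) or 3 (152) or male replicate 3 (131), from 239, and without uterine Amhr2+ replicate 1 (393), from 624. In those fits the called share of all tested genes fell as well. In every fit with 1 library left out, the called share was higher among flanking genes than among all tested genes. With the replicate block the counts were 301, 857, 788, 564, 475 and 701 in the order above, and the pairing of same-numbered libraries moved none of them by over 1.5 times; of named genes it ended the calls of Gata6 (adjusted p = 0.0582) and Nfib (0.0503) for age in females and gained one for Pdgfd for sex at E14.5 (0.0304) and for Gata6 (0.0245), Tcf7l2 (0.0449), Gdf6 (0.0447), Hs3st3b1 (0.0445) and Nfe2l3 (0.0491) for sex at E16.5. With the replicate block, the called share of all tested genes moved in the same direction as the count of flanking genes in each comparison. It stayed below the called share of flanking genes. Replicate numbers at E14.5 and in the uterus were not taken as pairs, since some same-number correlations were under 0.1. Over the named genes, 2392 values kept direction and side of the threshold, 46 lost and 29 gained a call, and none turned. No counts were present for 1449 flanking genes, of which 660 were small or other RNAs, 698 unmatched rows and 81 protein-coding.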
